A study of Mus musculus with 8 samples.

Results

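Conventional dendritic cells of the mouse heart were taken from 4 single-cell RNA libraries, 1 from a sham-operated heart group and 1 each from groups killed 2, 4 and 6 weeks after transverse aortic constriction (TAC-2w, TAC-4w and TAC-6w). All animals were male wild-type C57BL/6J mice aged 8 weeks at surgery, and no transgene or drug was used. In TAC a ligature narrows the aortic arch and loads the left ventricle with pressure, and the sham group had the operation without the narrowing. Barcodes were kept with 200 to 6000 detected genes, 500 to 30000 unique molecular identifiers (UMIs, 1 per captured RNA molecule) and under 15% mitochondrial UMIs. A kept cell was a member when Flt3, Cd209a, Xcr1 and Clec9a summed to at least 2 UMIs, H2-Aa, H2-Ab1 and H2-Eb1 summed to at least 10, C1qa, C1qb and C1qc summed to under 5, and Cd79a and Cd3e were at 0. Members were thus chosen by the measured UMIs of these 12 genes. The rule found 180 members among 27053 kept cells, with 54 in sham, 65 in TAC-2w, 29 in TAC-4w and 32 in TAC-6w.

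Conventional dendritic cells arise from Flt3-dependent precursors and carry antigen from tissue to lymph nodes, where they prime T cells. The type 1 subset (cDC1), which needs the transcription factors IRF8 and BATF3, takes up dead cells through CLEC9A, follows the chemokine XCL1 through XCR1 and presents antigen to CD8 T cells. The type 2 subset (cDC2) depends on IRF4 and ZEB2, carries SIRPA, CD11b (Itgam) and C-type lectins such as CD209a, and mainly presents antigen to CD4 T cells. Members with an Xcr1 or Clec9a UMI and no Cd209a UMI are called Xcr1/Clec9a cells here, and members with a Cd209a UMI and neither of the other pair are called Cd209a cells.

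The 3 genes that split the members are shown with the 250 bases before their transcription start, because these genes define every comparison of subsets below. Sequences are from RefSeq (GRCm38.p6), 5′ to 3′ on the gene strand, and capitals mark matches to the interferon regulatory factor (IRF) letters. Xcr1, the XCL1 receptor, lies at chr9:123852315-123862029, minus strand. Clec9a, the dead-cell receptor, lies at chr6:129408862-129424764, plus strand. Cd209a, a C-type lectin, lies at chr8:3743395-3748984, minus strand.
Xcr1, chr9:123862030-123862279: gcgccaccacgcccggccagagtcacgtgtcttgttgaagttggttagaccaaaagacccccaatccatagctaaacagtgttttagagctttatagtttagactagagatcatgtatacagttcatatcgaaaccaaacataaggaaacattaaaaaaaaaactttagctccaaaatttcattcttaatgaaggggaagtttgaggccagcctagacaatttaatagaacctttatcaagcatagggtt
Clec9a, chr6:129408612-129408861: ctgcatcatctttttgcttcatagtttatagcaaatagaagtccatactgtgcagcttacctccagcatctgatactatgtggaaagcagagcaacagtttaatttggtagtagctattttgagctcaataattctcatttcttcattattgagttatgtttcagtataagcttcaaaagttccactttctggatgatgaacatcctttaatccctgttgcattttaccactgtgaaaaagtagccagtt
Cd209a, chr8:3748985-3749234: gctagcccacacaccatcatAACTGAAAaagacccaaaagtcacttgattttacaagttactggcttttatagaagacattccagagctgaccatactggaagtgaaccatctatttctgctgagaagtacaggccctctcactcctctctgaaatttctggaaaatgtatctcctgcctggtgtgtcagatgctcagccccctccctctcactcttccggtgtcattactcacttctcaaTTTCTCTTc

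All 3 windows were searched on both strands for AANNGAAA (IRF), TGANTCA (AP-1) and GAGGAA (PU.1). The Cd209a window held 2 IRF matches, AACTGAAA at 230 to 223 bases before the start on the gene strand and TTTCTCTT at 9 to 2 bases before it, read from the other strand. None of these letters was found in the Xcr1 or Clec9a window. Among 32536 upstream windows of the same length, 21.3% held the IRF letters, 6.73% those of AP-1 and 23.4% those of PU.1. A match is a description of the letters and not a measured binding site.

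The deposited libraries held 10275 barcodes in sham, 7924 in TAC-2w, 8420 in TAC-4w and 5854 in TAC-6w, and 8228, 6501, 6747 and 5577 of them were kept. Median depth per kept cell was 9250.5 UMIs in sham, 10856 in TAC-2w, 4484 in TAC-4w and 4828 in TAC-6w. Members were deeper than their libraries, with medians of 13148, 14065, 14610 and 9207.5 UMIs in the same order. Cell libraries of sham and TAC-6w are labelled batch 3, that of TAC-2w batch 1 and that of TAC-4w batch 2, with no word on what a batch shared. With 1 library per condition, condition and library cannot be told apart, so differences between conditions carry no test, and their intervals cover counting error only. Pairs of libraries shared 9 to 30 deposited barcode sequences, and no member barcode occurred in a second library. A doublet caller marked 2 members in sham, 4 in TAC-2w, 1 in TAC-4w and 2 in TAC-6w.

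The genes of the rule are described first, without a test, because they chose the cells. Xcr1 stood at 133 counts per 1000000 UMIs (CPM) of the summed members in sham, 149 in TAC-2w, 75.2 in TAC-4w and 68.7 in TAC-6w, and Clec9a at 86.3, 118, 104 and 61.5. Cd209a stood at 646, 522, 699 and 459 CPM. Flt3, the receptor for the growth factor of dendritic cell precursors, stood at 61.0, 98.9, 122 and 83.1 CPM. The sum of these 4 genes per cell had a median of 11 UMIs in sham, 11 in TAC-2w, 13 in TAC-4w and 3.5 in TAC-6w, so TAC-6w members lay closest to the threshold of 2. Class II genes of the rule had medians of 368, 363, 368 and 262.5 UMIs per cell. At the edges of the rule, 14 members had exactly 2 UMIs of the 4 genes, 37 cells missed by having 1, and 34 cells that met the other conditions were left out for 5 or more C1q UMIs. A further 66 members had 1 to 4 C1q UMIs.

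Of the 180 members, 70 were Xcr1/Clec9a cells, 94 were Cd209a cells, 13 had UMIs of both kinds and 3 passed on Flt3 alone. By library, sham held 22 Xcr1/Clec9a and 28 Cd209a cells, TAC-2w 30 and 31, TAC-4w 7 and 14, and TAC-6w 11 and 21. Cells with both kinds of UMI numbered 4, 4, 5 and 0, and all 3 cells with Flt3 alone were in TAC-4w. In the plot of UMIs per member, cells lie along either axis in every library.

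**Figure D1:**
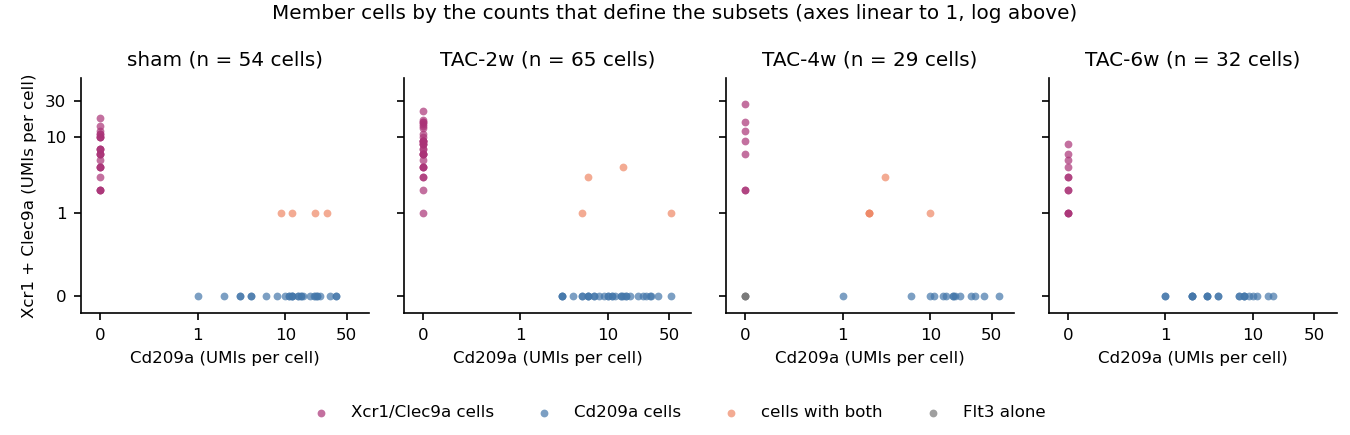
Each point is 1 member, with Cd209a UMIs on the x axis and the sum of Xcr1 and Clec9a UMIs on the y axis, on scales that are linear near 0 and logarithmic above, in a panel for each library. Most points lie along an axis, and 13 of 180 cells have UMIs of both kinds.

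Genes outside the rule were then set against the label. Itgax (CD11c, an integrin of dendritic cells) had a UMI in 61.1% of members, and its level was 95.5 CPM in members against 11.0 in MHC class II macrophages of the same libraries. Zbtb46, a transcription factor of conventional dendritic cells, had a UMI in 29.4% of members and stood at 31.4 CPM, against 2.48 in the macrophages and 2.01 in the Ly6c2 cells described below. Both genes stood higher in the pooled members than in either other class, and Zbtb46 was found in 15, 24 and 12 members of sham, TAC-2w and TAC-4w but in 2 of 32 in TAC-6w. Adgre1 (F4/80, a macrophage receptor) had a UMI in 13.3% of members and 72.8% of macrophages. Background for the 4 dendritic cell genes of the rule was measured in 7768 stromal cells, at a median depth of 9561 UMIs. These had at least 5 Dcn UMIs, no C1q UMIs and under 10 class II UMIs, which leaves out barcodes with more myeloid RNA. Cd209a had a UMI in 0.0901% of them, Xcr1 and Clec9a each in 0.0129%, and Flt3 in 0.0644%.

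The listed markers Ccl17 and Ccl22, chemokines that draw CCR4-bearing T cells, were found in few members. Ccl17 had a UMI in 30 of 180 members (16.7%) and Ccl22 in 22 (12.2%), against 1.22% of macrophages for Ccl17. Stromal cells had a Ccl17 UMI in 0.154%. Ccr7, the receptor that guides mature dendritic cells to lymph nodes, had a UMI in 14 members (7.78%), and Fscn1, an actin-bundling protein of mature dendritic cells, had 0 UMIs in members.

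Some members went against the label. In TAC-4w, 3 members had 39, 23 and 30 UMIs of Siglech and 78, 86 and 89 of Ly6d, both genes of plasmacytoid dendritic cells, with 88, 79 and 15 class II UMIs. A TAC-2w member had 19 Siglech and 10 Ly6d UMIs. All members with at least 2 Siglech UMIs numbered 1 in sham, 5 in TAC-2w, 4 in TAC-4w and 0 in TAC-6w.

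Members were a small share of each library. They made up 0.656% of kept cells in sham (95% exact Clopper-Pearson interval 0.493 to 0.855), 1.00% in TAC-2w (0.772 to 1.27), 0.430% in TAC-4w (0.288 to 0.617) and 0.574% in TAC-6w (0.393 to 0.809). The TAC-2w share was 1.52 times that of sham (95% counting interval 1.05 to 2.23), TAC-4w 0.655 times (0.402 to 1.05) and TAC-6w 0.874 times (0.546 to 1.38). Of these, the interval of TAC-2w alone lay clear of 1, and the intervals of TAC-4w and TAC-6w spanned it. Directions turned with the denominator. Of members, macrophages and Ly6c2 cells, TAC-4w was at 4.13% and TAC-6w at 3.9%, both above the 3.15% of sham. Of cells with Ptprc, the pan-leukocyte antigen CD45, TAC-4w was at 0.602%, below the 2.10% of sham, and TAC-6w above it at 2.51%. After thinning every cell to 3000 UMIs, the shares were 0.517, 0.698, 0.361 and 0.421%, with 874, 623, 1477 and 1775 shallower cells left out, and the TAC-2w ratio of 1.35 had an interval that spanned 1 (0.847 to 2.16). It also spanned 1 with mitochondrial UMIs under 5% (0.961 to 2.23) and over cells with Ptprc (0.926 to 1.97) or over members, macrophages and Ly6c2 cells (0.994 to 2.12). The TAC-4w interval lay below 1 over cells with Ptprc (0.176 to 0.458) and with a minimum of 20 class II UMIs (0.353 to 0.954) or of 3 UMIs of Flt3, Cd209a, Xcr1 and Clec9a (0.365 to 0.994).

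Xcr1/Clec9a cells made up 44.0% of the cells of either subset in sham, 49.2% in TAC-2w, 33.3% in TAC-4w and 34.4% in TAC-6w. The ratios to sham were 1.12 (0.624 to 2.03), 0.758 (0.273 to 1.84) and 0.781 (0.342 to 1.68), and every interval spanned 1. Thinned to 3000 UMIs, the shares were 28.9, 35, 29.4 and 12.5%, so the share also moved with depth. These intervals cover counting error only, and with 1 library per condition a change in the balance of the subsets was not tested.

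**Figure D2:**
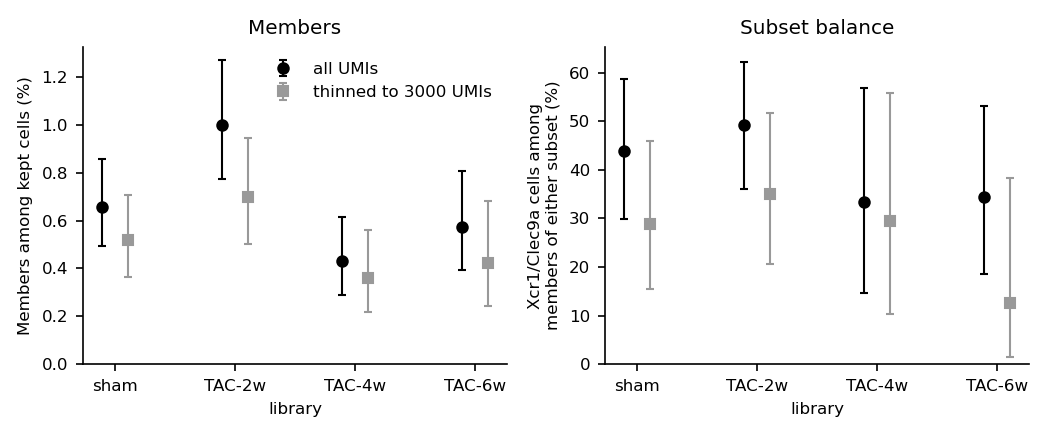
Members as a percentage of kept cells (left) and Xcr1/Clec9a cells as a percentage of the cells of either subset (right) in the 4 libraries, for all UMIs and after thinning to 3000 UMIs, with 95% exact binomial intervals. TAC-2w has the highest share of members, at 1.00%, and the intervals of the subset shares overlap.

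To compare the subsets, UMIs were summed per library and subset, and edgeR's quasi-likelihood test was run with the library as a block over 4 libraries. Xcr1/Clec9a cells differed from Cd209a cells in 367 of 3095 genes tested at a Benjamini-Hochberg adjusted p under 0.05, with 157 higher (5.07% of genes tested) and 210 lower (6.79%). Among them, Irf8, Tlr3 and Cst3 were higher and Itgam, S100a4 and Il1b were lower. Sums rested on 70 and 94 cells, and nothing in the labels says how many mice each library pooled. The test therefore measures the spread among 4 libraries.

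Irf8, a transcription factor that cDC1 need (chr8:120736358-120756694), stood at 1490.4 CPM in Xcr1/Clec9a cells of sham, 1423 in TAC-2w, 1670.4 in TAC-4w and 1093 in TAC-6w. In Cd209a cells it stood at 21.4, 13.8, 42.6 and 40.6 CPM. The 4 sums of Xcr1/Clec9a cells all lay above the 4 of Cd209a cells, as they did for 5.88% of the 3095 genes tested, while 7.85% lay wholly below. The log2 difference was 5.78 (SE 0.30, edgeR adjusted p = 9.79e-06), and 69 of 70 Xcr1/Clec9a cells had an Irf8 UMI. Batf3, the partner of JUN proteins in cDC1, was 116, 133, 251 and 240.4 CPM against 69.6, 46.1, 63.9 and 102 (log2 difference 1.39, SE 0.26). Id2, a repressor of E proteins, was higher by 1.51 on the log2 scale. Zeb2, a repressor tied to cDC2, was 16.2, 49.1, 8.35 and 0 CPM against 455, 498, 315 and 257 (log2 difference -4.07).

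Over the 12 tested genes of the dendritic cell development list, Batf3, Irf8 and Id2 were higher and Zeb2 lower, and the median log2 difference was 0.08, beside 0.01 over all genes tested. Irf4, which cDC2 need, did not pass the filter on low counts and was not tested, with 0, 4, 0 and 0 UMIs in Xcr1/Clec9a cells against 32, 25, 4 and 20 in Cd209a cells. Zbtb46, shared by both subsets, did not pass (log2 difference 1.00, edgeR adjusted p = 0.230). Klf4, a cDC2 factor, did not pass either (-0.55, edgeR adjusted p = 0.283).

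Among cDC1 genes, Gcsam, a signalling adaptor known from germinal centre B cells (chr16:45610440-45622867), had 46, 55, 15 and 18 UMIs in Xcr1/Clec9a cells and 0 in Cd209a cells of every library. It was at least 49.8-fold higher, with the group at 0 set to a floor of 3 UMIs over its summed cells. Gpr141b, an orphan receptor, had 118 UMIs against 0 (at least 43.8-fold) and Fam149a 56 against 0 (at least 20.8-fold). These 3 genes were absent from the UMIs of all 94 Cd209a cells. Itgae (CD103, an integrin that binds E-cadherin) had 126 UMIs against 2, a ratio of 70.2 (95% counting interval 19.0 to 586). Cxcr3, a receptor for interferon-induced chemokines, had 61 UMIs against 3, a ratio of 22.7 (7.40 to 113).

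Tlr3, a sensor of double-stranded RNA, stood at 168, 137, 192 and 163 CPM in Xcr1/Clec9a cells against 5.35, 2.30, 4.26 and 6.77 in Cd209a cells (log2 difference 5.16, SE 0.37). Cadm1, an adhesion molecule of cDC1, stood at 210.1, 243, 167 and 170.6 CPM against 24.1, 4.61, 0 and 6.77 (4.41). The other genes of largest increase were Sept3 (4.74), Xlr (4.43), Ifi205 (4.42) and Rab7b (3.99), and Ifi205 belongs to a family of near-identical copies whose reads may be split.

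Cst3 (cystatin C, an inhibitor of cysteine proteases) was among the most abundant of these genes. It stood at 26045, 21783, 26644 and 22325 CPM in Xcr1/Clec9a cells and 5162, 5979, 5977 and 6203 in Cd209a cells, a log2 difference of 2.09 (SE 0.10, edgeR adjusted p = 9.79e-06). Naaa, a lysosomal lipid hydrolase, was higher by 2.75, Ppt1, a lysosomal thioesterase, by 3.92, and Wdfy4, needed for cross-presentation of cell-bound antigen, by 2.21. Kit, the stem cell factor receptor, had a UMI in 51.4% of Xcr1/Clec9a cells and 9.57% of Cd209a cells. Over the whole cDC1 list, 14 of 15 tested genes were higher and 0 lower, with a median log2 difference of 3.92, also with Gcsam at its bound. Ckb, a creatine kinase, was the exception (0.17, edgeR adjusted p = 0.622). The list holds textbook partners of Xcr1 and Clec9a, so its direction is not independent of how the cells were split.

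Among cDC2 genes, Sirpa, an inhibitory receptor that binds CD47, had 1 UMI in Xcr1/Clec9a cells and 82 in Cd209a cells, a ratio of 0.0136 (95% counting interval 0.00034 to 0.0779). Itgam stood at 0, 11.8, 0 and 0 CPM against 246, 179.7, 222 and 115 (log2 difference -5.08). The lectins Clec10a and Mgl2 were lower as well, Clec10a at 6.47, 11.8, 0 and 0 CPM against 225, 147, 495 and 244 (-4.82) and Mgl2 at 0, 51.0, 0 and 0 against 554, 375, 823 and 657 (-4.77). These lectins are near-identical neighbours on chromosome 11 whose reads may be split. S100a4, a calcium-binding protein of motile cells, stood at 197, 78.5, 33.4 and 0 CPM against 1805, 1859, 3095 and 1510.2 (-4.72).

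The remaining genes of largest decrease were Tmem176a (-4.91) and Tmem176b (-4.82), ion channels of the endosome, Cybb (-4.62), the oxidase that makes superoxide, Ptgs2 (-4.54), which makes prostaglandins, and the chemokine Ccl9 (-4.50). Mcemp1 had 3 UMIs against 101, a ratio of 0.0331 (0.0067 to 0.0996), and Emilin2 2 against 66, a ratio of 0.0338 (0.0040 to 0.127). Of 14 tested genes of the cDC2 list, 0 were higher and 11 lower, with a median log2 difference of -3.67. The 3 that did not pass were Klf4, Ccr2 (-0.65, edgeR adjusted p = 0.0770) and Lyz2 (-0.34, edgeR adjusted p = 0.350). Csf1r, the receptor for macrophage growth factor, was lower by -2.74 and Cd14, a co-receptor for lipopolysaccharide, by -3.91.

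**Figure D3:**
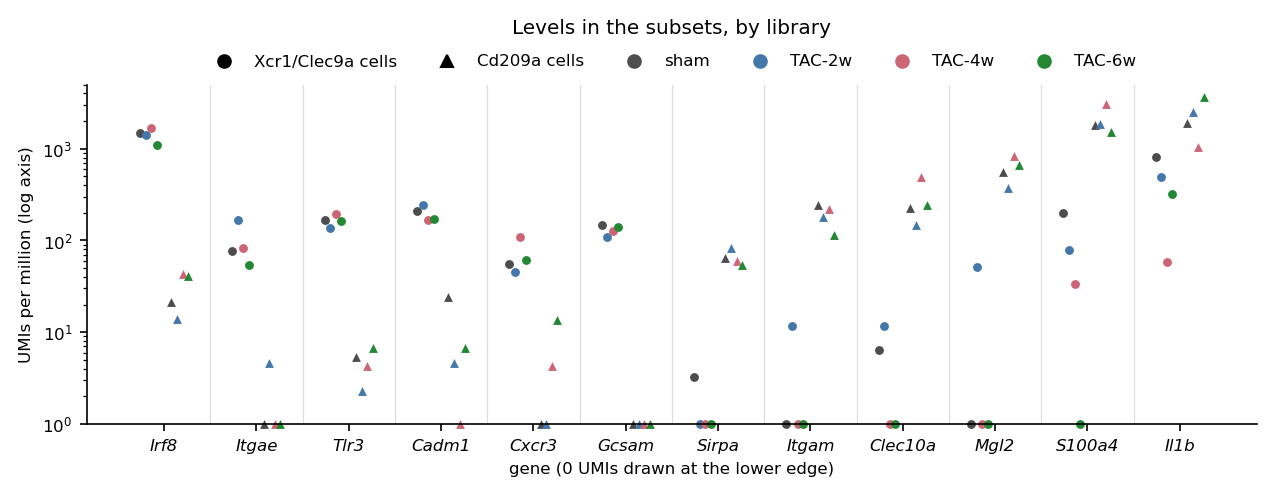
CPM (log axis, values of 0 at the lower edge) of 12 genes in Xcr1/Clec9a cells and Cd209a cells, 1 point per library and subset. Irf8, Itgae, Tlr3, Cadm1, Cxcr3 and Gcsam are higher in Xcr1/Clec9a cells in all 4 libraries, and Sirpa, Itgam, Clec10a, Mgl2, S100a4 and Il1b are lower.

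Il1b and part of the cytokine list were lower in Xcr1/Clec9a cells. Il1b, which encodes the cytokine interleukin 1 beta, stood at 815, 487, 58.5 and 318 CPM in Xcr1/Clec9a cells against 1928, 2508, 1036 and 3657 in Cd209a cells (log2 difference -2.59, SE 0.38, edgeR adjusted p = 0.00166). Of 12 tested cytokine and chemokine genes, 0 were higher and 7 lower, including Ccl3 (-3.26), Ccl6 (-2.11), Ccl2 (-1.62), Tnf (-1.62) and Ccl4 (-1.07). Ccl17 (-2.44, edgeR adjusted p = 0.214) and Ccl22 (-2.04, edgeR adjusted p = 0.115) did not pass. Of 5 tested pattern recognition genes, 2 were higher and 2 lower, among them Tlr3 higher and Tlr2, a receptor for bacterial lipoproteins, lower (-2.61). Of 5 chemokine receptors, Cxcr3 was higher and Ccr1 lower (-3.97).

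Of 10 tested class II genes outside the rule, 0 were higher in Xcr1/Clec9a cells and 5 were lower, with a median log2 difference of -0.47. Ctss, the protease that trims the invariant chain, stood at 320.1, 363, 409 and 271 CPM against 1015, 972, 1143 and 928 (-1.53). Cd74, the invariant chain itself, stood at 15085, 16764, 19753 and 15059 CPM against 20040, 20893, 23418 and 26506, a small difference (-0.40, SE 0.11, edgeR adjusted p = 0.0447) that had the same sign in 4 of 4 libraries. Lgmn (-2.68), an endosomal protease, H2-DMb2 (-1.67), a peptide exchange subunit, and Ifi30 (-1.40), a thiol reductase, were the others. Of 10 class I genes, 1 was higher and 0 lower. That gene was Psmb9, an immunoproteasome subunit, at 524, 506, 593 and 550.6 CPM against 217, 147, 234 and 176 (1.55).

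Maturation genes were lower where they differed. Of 8 tested mature dendritic cell genes, 0 were higher and 4 lower, namely Samsn1 (-1.96), Birc3 (-1.95), Tmem123 (-1.52) and Cd83 (-0.80), an activation marker. Cd86, a costimulatory ligand, did not pass (0.63, edgeR adjusted p = 0.197). Neither the 5 tested interferon-response genes nor the 11 tested cell cycle genes held a called gene. Of 12 dissociation stress genes, 1 was lower, Junb (-0.85).

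Markers of other cell types were mostly too low to be tested between the subsets. None of the tested macrophage (1), monocyte (3), plasmacytoid (2), B cell (1), stromal (3) or platelet and red cell (2) markers was called, and no T or natural killer cell or neutrophil marker was abundant enough to be tested. With cells thinned to 3000 UMIs, 112 of 705 genes tested were called. Leaving out 1 library gave between 202 calls (without TAC-2w) and 442, and without sham there were 214. The 24 genes named for the size of their difference kept their calls in every alternative that tested them.

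Members were next compared with class II macrophages, defined as kept cells with at least 10 class II UMIs, at least 5 C1q UMIs and none of Flt3, Cd209a, Xcr1, Clec9a, Cd79a and Cd3e, which numbered 1575 in sham, 1317 in TAC-2w, 136 in TAC-4w and 730 in TAC-6w. Members differed in 2415 of 7616 genes tested, with 1194 higher (15.7% of genes tested) and 1221 lower (16.0%). Most class II genes outside the rule were higher in members, and resident macrophage genes were lower. C1q genes divided the groups by definition, so genes known to go with them are not independent of the gate.

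Of 10 tested class II genes outside the rule, 8 were higher in members and 2 lower. H2-Oa, a subunit that restrains peptide exchange, stood at 78.3, 82.9, 102 and 188 CPM in members against 1.43, 0.754, 1.87 and 1.56 in macrophages (log2 difference 6.39). H2-DMb2 (4.81), H2-Ob (3.79), Ifi30 (1.57), Ciita (1.35), the master activator of class II genes, H2-DMb1 (1.29) and H2-DMa (1.28) were also higher. Cd74 was higher in members in 3 of 4 libraries (0.38, SE 0.10, edgeR adjusted p = 0.0185), with TAC-4w macrophages at 22559 CPM above members at 20604. Ctss (-1.12) and Lgmn (-3.03) were lower. Summed class II genes without those of the rule stood at 21653, 21763, 25384 and 24940 CPM in members and 16484, 15948, 27484 and 19174 in macrophages, so TAC-4w ran the other way, and Cd74 was the most abundant of them in every library.

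Several genes that were higher in Xcr1/Clec9a cells were also higher in members than in macrophages. Members include those cells, so the 2 comparisons share UMIs and are not independent. Xcr1/Clec9a cells held 134 of the 135 member UMIs of Gcsam and 118 of 118 of Gpr141b. They held 126 of 128 of Itgae and 195 of 206 of Sept3, so these ratios describe that subset more than all members. Gcsam had 135 UMIs in members and 0 in macrophages (at least 571-fold) and Gpr141b was at least 499-fold higher. Itgae had a ratio of 812 (95% counting interval 220 to 6779) and Sept3 of 1307 (357 to 10866), each with 2 macrophage UMIs, and Kctd14 was higher by 8.17 on the log2 scale. Kit, not tested between the subsets, had 88 UMIs against 3, a ratio of 372 (123 to 1840), and stood at 27.9, 33.0, 57.5 and 28.9 CPM in members. At the other end, Ms4a7 had 0 UMIs in members and 9309 in macrophages (at least 244-fold lower), and Vsig4, a complement receptor, was at least 117-fold and Cxcl13 at least 103-fold lower.

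All 9 tested macrophage markers were lower in members, including Cd163 (-4.43), the haemoglobin scavenger receptor, Adgre1 (-3.71) and Mrc1 (-3.61), a mannose receptor. Mertk, a receptor for dying cells, had 1 UMI in members and 2183 in macrophages. Without the C1q genes, which the gates used, summed macrophage markers stood at 275, 231, 274 and 159 CPM in members, with Cd68 the most abundant, and at 3135, 3807, 1961 and 2338 in macrophages, with Mrc1 the most abundant. Of 9 monocyte markers, 5 were higher and 0 lower in members, including Plac8 (5.04), Ly6c2 (3.42), Nr4a1 (1.59) and Ccr2 (1.52), the receptor that draws monocytes into tissue.

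Of the subset lists, 13 of 15 cDC1 genes were higher in members than in macrophages. Of 17 cDC2 genes, 6 were higher (Il1b, Tnip3, Ccr2, Clec10a, Cd7 and Irf4) and 8 lower. Of 16 cytokine and chemokine genes, 2 were higher, Ccl17 (6.02) and Il1b (1.28), and 8 lower. Of 11 pattern recognition genes, Tlr3 was higher (2.65) and 8 were lower, including Tlr7 (-5.09) and Cd14 (-2.87). Of 12 class I genes, 4 were higher, among them Psmb9 (1.40) and Tap1 (0.96), a peptide transporter subunit, and 3 lower, H2-D1 (-0.74), B2m (-0.61) and H2-K1 (-0.58).

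Of 14 cell cycle genes tested, 6 were higher in members than in macrophages and 0 lower, including Pclaf (2.30), a clamp-binding factor of DNA synthesis, and Tubb5 (0.99). Mki67, the proliferation antigen, did not pass (0.92, edgeR adjusted p = 0.133). Of 12 dissociation stress genes, 0 were higher and 9 lower, including Fos (-0.98). Of 13 interferon-response genes, 2 were higher and 3 lower, and of 15 development genes 7 were higher and 1 lower. Of 6 platelet and red cell genes, 1 was higher and 5 were lower, Pf4 by -5.72 and Hbb-bs by -4.37, and of 9 stromal genes 0 were higher and 4 lower. Members had a median depth of 13128 UMIs over all libraries, above the macrophage medians of 7771, 8999, 6905 and 3847.5. With cells thinned to 3000 UMIs, 1138 of 3392 genes tested were called, and without sham or TAC-2w, 1574 or 1531 genes were.

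**Figure D4:**
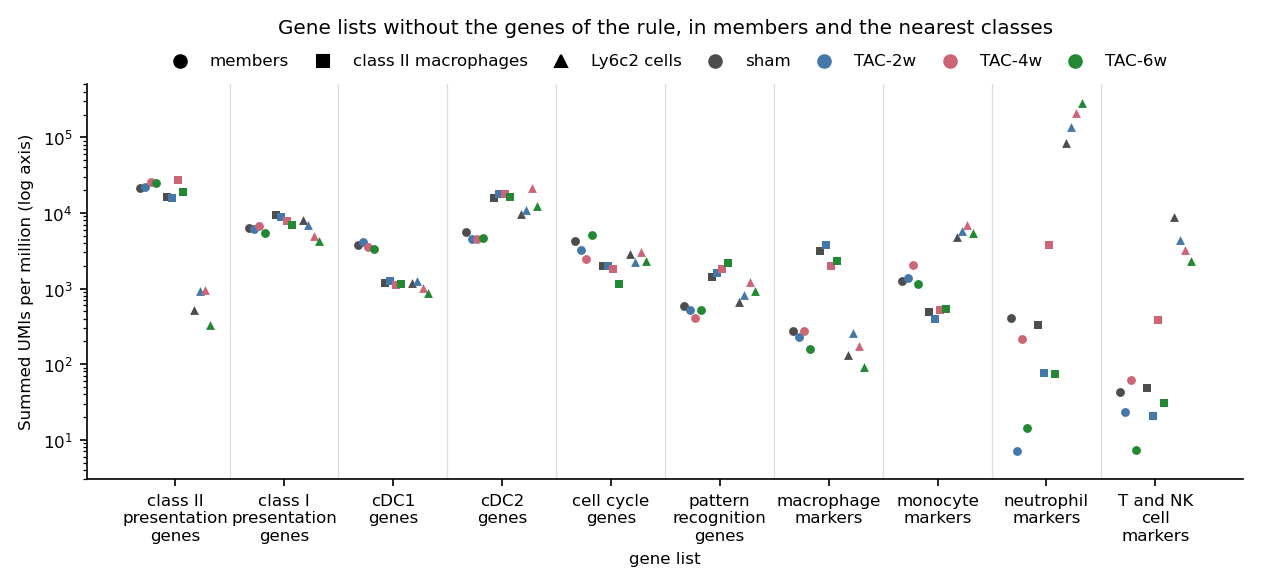
Summed CPM (log axis) of 10 gene lists, without the genes of the rule, in members, class II macrophages and Ly6c2 cells, 1 point per library. Class II genes stand at 21653 to 25384 in members, macrophage markers at 159 to 275, and neutrophil markers are highest in the Ly6c2 cells of every library.

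A second comparison used Ly6c2 cells, a gate meant for monocytes (at least 2 Ly6c2 UMIs, under 10 class II UMIs and under 5 C1q UMIs), with 88 cells in sham, 45 in TAC-2w, 538 in TAC-4w and 59 in TAC-6w. The gate went against that name: 271 of 730 cells had at least 2 UMIs of Ngp, Camp and Ltf, granule genes of neutrophils, 230 had at least 2 of Nkg7 and Gzma, genes of killer cells, and 126 of the 240 cells left had a Ccr2 UMI. Members differed in 1778 of 4971 genes tested, with 748 higher (15.0% of genes tested) and 1030 lower (20.7%). Of 10 neutrophil markers 10 were lower in members (median log2 difference -10.8, and -10.6 with genes at 0 set to their bound). Of 7 T and natural killer cell markers 6 were lower (median -10.2, and -6.87 with bounds). Summed neutrophil markers were 83514, 137190, 209430 and 283970 CPM in Ly6c2 cells, and their part in the other differences was not tested. With granule and killer cells left out, an alternative added after the data were seen, 1096 of 4024 genes were called, 506 higher and 590 lower.

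Ccl17 had 816 UMIs in members and 0 in Ly6c2 cells (at least 653-fold higher). Mgl2 stood at 341, 208, 447 and 351 CPM in members against 1.92, 0, 0.624 and 3.80 (log2 difference 8.34), and Slamf9 was higher by 7.00. Cadm1 had 1 UMI in Ly6c2 cells, a ratio of 583 (104 to 23138). Class II genes outside the rule were higher in 9 of 10, but the gate itself held Ly6c2 cells to few class II UMIs. Of 15 cDC1 genes 12 were higher, and of 17 cDC2 genes 4 were higher and 8 lower. Of 12 cell cycle genes, 3 were higher, Tubb5 (1.90), Mki67 (1.42) and Top2a (1.2), a topoisomerase of dividing cells.

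Cells with at least 2 UMIs over Mki67, Top2a, Cdk1, Birc5 and Ccnb2, genes of dividing cells, were counted in each class. They were 16 of 54 members in sham (29.6%), 13 of 65 in TAC-2w (20.0%), 1 of 29 in TAC-4w (3.45%) and 10 of 32 in TAC-6w (31.3%). Over all libraries, the share was 22.2% of members, 8.75% of macrophages and 5.48% of Ly6c2 cells. In TAC-4w alone the order was the reverse, with 3.45% of members, 5.15% of macrophages and 5.76% of Ly6c2 cells, and 538 of the 730 Ly6c2 cells came from that library. Thinned to 3000 UMIs, the shares of members were 20.4% in sham, 7.81% in TAC-2w, 3.45% in TAC-4w and 20.7% in TAC-6w, against 7.39, 6.41, 4.00 and 2.84% of macrophages. The intervals of the thinned TAC-2w shares overlapped (2.59 to 17.3% of members, 5.14 to 7.89% of macrophages). Between subsets the order differed by library, with 5 of 22 Xcr1/Clec9a cells against 11 of 28 Cd209a cells in sham, 5 of 30 against 8 of 31 in TAC-2w, 0 of 7 against 1 of 14 in TAC-4w, and 6 of 11 against 4 of 21 in TAC-6w. Top2a stood at 158, 123, 86.3 and 253 CPM in members, and in TAC-4w all 39 UMIs fell in 1 cell. Stromal cells had an Mki67 UMI in 0.579%.

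Conditions were compared on summed members, over genes with at least 50 UMIs in either of the 2 sums. For TAC-2w, 48 of 2517 genes stood at over 2 times sham (1.91%) and 22 at under 0.5 times (0.874%). For TAC-4w, 46 of 1900 were over 2 times (2.42%) and 151 under 0.5 times (7.95%), and for TAC-6w 30 of 1868 (1.61%) and 227 (12.2%). The median ratio was 1.01, 1.01 and 0.825, so most of the genes kept for TAC-6w stood below sham. Member sums of TAC-4w (451902 UMIs) and TAC-6w (276623) were smaller than that of sham (753565). A gene thus needed a higher CPM in them to reach 50 UMIs, which tilts the kept genes towards ratios under 1. Many of the largest ratios rested on 1 or a few cells.

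Ccl17 was among the genes of largest ratio in TAC-4w and TAC-6w. It had 23 UMIs in 9 cells in sham, 204 in 11 cells in TAC-2w, 513 in 4 cells in TAC-4w and 76 in 6 cells in TAC-6w, or 30.5, 204, 1135 and 275 CPM. The ratio to sham was 37.2 in TAC-4w (95% counting interval 24.5 to 59.2), with 511 of 513 UMIs in 3 cells. In TAC-6w it was 9.0 (5.58 to 15.0), with 69 of 76 UMIs in 2 cells. Cells with a UMI were 16.7, 16.9, 13.8 and 18.8% of members, so the share of cells did not follow the level. Ccl22 had 3, 72, 13 and 47 UMIs in 3, 10, 2 and 7 cells, with ratios to sham of 18.1 (5.94 to 89.7), 7.23 (1.99 to 39.5) and 42.7 (13.7 to 214). Members with at least 2 UMIs of the pair were 6, 10, 4 and 5 (13.9% of all members), against 0.186% of macrophages. Thinned to 3000 UMIs, they were 0 of 54 in sham, with an exact upper limit of 6.60%, 8 of 64 in TAC-2w, 3 of 29 in TAC-4w and 3 of 29 in TAC-6w.

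The mature dendritic cell list, which holds both chemokines, stood at 1.31 times sham in TAC-2w (95% counting interval 1.19 to 1.43), 1.65 times in TAC-4w (1.48 to 1.82) and 1.58 times in TAC-6w (1.40 to 1.79). Without Ccl17 the list stood at 1.14 (1.03 to 1.25), 0.518 (0.444 to 0.602) and 1.35 times (1.19 to 1.53), so its direction in TAC-4w rested on Ccl17 in a few cells. Its other genes did not share a pattern. Ccr7 had 4, 20, 0 and 9 UMIs, Cd83 stood at 366, 375, 111 and 557 CPM, and Cd86 at 149.95, 163, 86.3 and 72.3 CPM. Members with at least 2 UMIs of Ccr7 and Fscn1 together numbered 1, 6, 0 and 3.

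Interferon-response genes stood at 1.19 times sham in TAC-2w (1.06 to 1.35), 1.25 times in TAC-4w (1.08 to 1.45) and 0.399 times in TAC-6w (0.302 to 0.520), where 64 UMIs were counted. In TAC-2w and TAC-4w, 1 cell held 19.5% of 692 UMIs and 27.4% of 328. Within Xcr1/Clec9a cells the TAC-4w ratio was 0.773 (0.579 to 1.02), and within Cd209a cells 1.57 (1.27 to 1.95), with 50.6% of the UMIs in 1 cell. The TAC-6w ratio was 0.107 (0.0507 to 0.201) within Xcr1/Clec9a cells, from 10 UMIs. In sham 1 cell held 32.6% of the 224 UMIs of that subset. For Cd209a cells the TAC-6w ratio was 0.759, with an interval that spanned 1 (0.549 to 1.03). Irf7, an interferon-induced factor, stood at 92.9, 117, 79.7 and 10.8 CPM. Isg15, a ubiquitin-like modifier, stood at 35.8, 82.9, 115 and 54.2 CPM, above sham in TAC-6w where the list as a whole was below it. Cxcl9, which draws CXCR3-bearing T cells, had 75, 77, 1 and 2 UMIs in 7, 11, 1 and 2 cells, a TAC-4w ratio of 0.0222.

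The next sums leave out the genes of the rule. Class II genes stood at 1.01, 1.17 (1.14 to 1.2) and 1.152 times (1.12 to 1.18) sham 2, 4 and 6 weeks after TAC, and class I genes at 0.969, 1.07 and 0.875 times. The cDC1 list stood at 1.09, 0.939 and 0.872 times and the cDC2 list at 0.804, 0.806 and 0.837 times over all members, sums that also move with the shares of the subsets. Within Xcr1/Clec9a cells the cDC1 list stood at 0.955 (0.905 to 1.01), 1.18 and 0.771 times, so its direction turned 2 and 4 weeks after TAC. Within Cd209a cells the cDC2 list stood at 0.976 (0.927 to 1.03), 0.807 and 1.01 times (0.937 to 1.08). Development genes stood at 1.08, 0.995 and 0.871 times. The cytokine list stood at 0.991, 0.749 and 1.04 times, the chemokine receptors at 0.969, 1.40 (1.22 to 1.60) and 0.928 times and pattern recognition genes at 0.884, 0.689 and 0.873 times. Within the cytokine list, Il1b stood at 1356, 1361, 664 and 2100.3 CPM, and Tnf at 2.60 times sham in TAC-6w (1.65 to 4.08). Dissociation stress genes were at 1.01, 0.681 and 0.897 times sham, beside cell cycle genes at 0.756, 0.584 and 1.19 times. In TAC-4w 1 member held 42.6% of the 1127 cell cycle UMIs. The cell cycle ratio there was 0.310 within Xcr1/Clec9a cells and 0.821 within Cd209a cells.

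Of the 5 genes of largest ratio in TAC-4w, 3 were of the plasmacytoid list, Ly6d, Siglech and Runx2, and the others were Ccl17 and Cd7. Ly6d had 0 UMIs in sham and 254 in 4 TAC-4w members (at least 141-fold), and Siglech 3 and 98 (ratio 54.5, 18.1 to 269). Almost all of these UMIs lay in members with at least 2 Siglech UMIs, 253 of the 254 of Ly6d in 3 cells. Runx2 (10 cells) stood at 20.8 and Cd7 (13 cells) at 20.6 times sham, or 8.72 and 13.5 times without the members holding at least 2 Siglech UMIs. The plasmacytoid list summed to 1.85 times sham in TAC-2w (1.57 to 2.17), 6.68 in TAC-4w (5.75 to 7.78) and 0.632 in TAC-6w. Without the Siglech members it stood at 1.11 (0.928 to 1.33), 1.97 (1.62 to 2.38) and 0.643 times. Monocyte markers stood at 1.12, 1.66 (1.51 to 1.82) and 0.914 times sham, and members with at least 2 Ly6c2 UMIs numbered 1, 8, 7 and 1. Ly6d also differed in the other cells of the libraries, at 17.3 CPM in sham and 499 in TAC-4w. In those cells Runx2 stood at 3.89 and 16.5 CPM, Cd7 at 3.97 and 21.2, and Siglech at 1.07 and 2.91. What part free RNA had in members was not tested.

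In TAC-2w, the genes of largest ratio were smooth muscle genes: Tagln (216, 38.5 to 8566, from 1 and 287 UMIs), Myh11 (155), Mylk (54.2), Acta2 (49.9) and Myl9 (25.4). Between 95.6 and 99% of their TAC-2w UMIs lay in 1 cell that the doublet caller marked, and without marked cells the ratios were 2.40, 4.00, 0.800, 1.40 and 1.33. These last ratios rest on few UMIs. Sham had 1 UMI each of Tagln, Myh11 and Mylk and 4 each of Acta2 and Myl9. For Mylk, 71 of the 72 TAC-2w UMIs lay in the marked cell. The lowest ratios were those of S100a8 (117 UMIs in sham and 0 in TAC-2w, under 0.0193 at the floor of 3 UMIs) and S100a9 (0.0177), neutrophil genes of which 116 of 117 and 169 of 170 sham UMIs lay in 1 marked cell. Without marked cells the S100a9 ratio was 3.2, from few UMIs, with 4 in TAC-2w. In TAC-4w, 25 of 29 members had at least 2 UMIs of this pair, against 1, 0 and 0 in the other libraries in time order, or 3 of 29 when thinned to 3000 UMIs. The other cells of the TAC-4w library held S100a8 at 14564 CPM, against 346 in sham, and what part free RNA had was not tested. Cxcl2, a neutrophil-drawing chemokine, stood at 0.211 times sham (11 cells in sham, 14 in TAC-2w) and Ear2, a ribonuclease, at 0.251 times (18 and 11 cells).

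Retnla, a secreted protein of alternatively activated myeloid cells, had 1020 UMIs in 5 sham members, 900 of them in 1 cell. Its ratio to sham was 0.0310 in TAC-2w and 0.00327 in TAC-4w. Among the other lowest ratios of TAC-4w were Fcrls (0.0490, 7 cells in sham and 2 in TAC-4w) and Lpl (0.0612, 14 and 2 cells), and Cxcl14 had 69 UMIs in sham, 67 of them in 1 marked cell, and 0 in TAC-4w. TAC-6w members had 0 UMIs of Ccdc80, Col1a1, Cxcl14, Ltbp4 and S100a8, with upper limits from 3 UMIs of 0.120, 0.139, 0.118, 0.163 and 0.0699 times sham. The first 4 of these are fibroblast genes, and the stromal list stood at 1.06, 0.663 and 0.0602 times sham. Without marked cells the list stood at 0.336, 0.16 and 0.0935 times. In sham, 1 Xcr1/Clec9a cell held 375 UMIs of the list.

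Gpr183, an oxysterol receptor that positions dendritic cells, stood at 3.63 times sham in TAC-6w members (21 cells), Ube2c, a mitotic ubiquitin enzyme, at 3.29 (8 cells) and the histone gene Hist1h1c at 3.16 (14 cells). Cell libraries of sham and TAC-6w carry the same batch label.

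**Figure D5:**
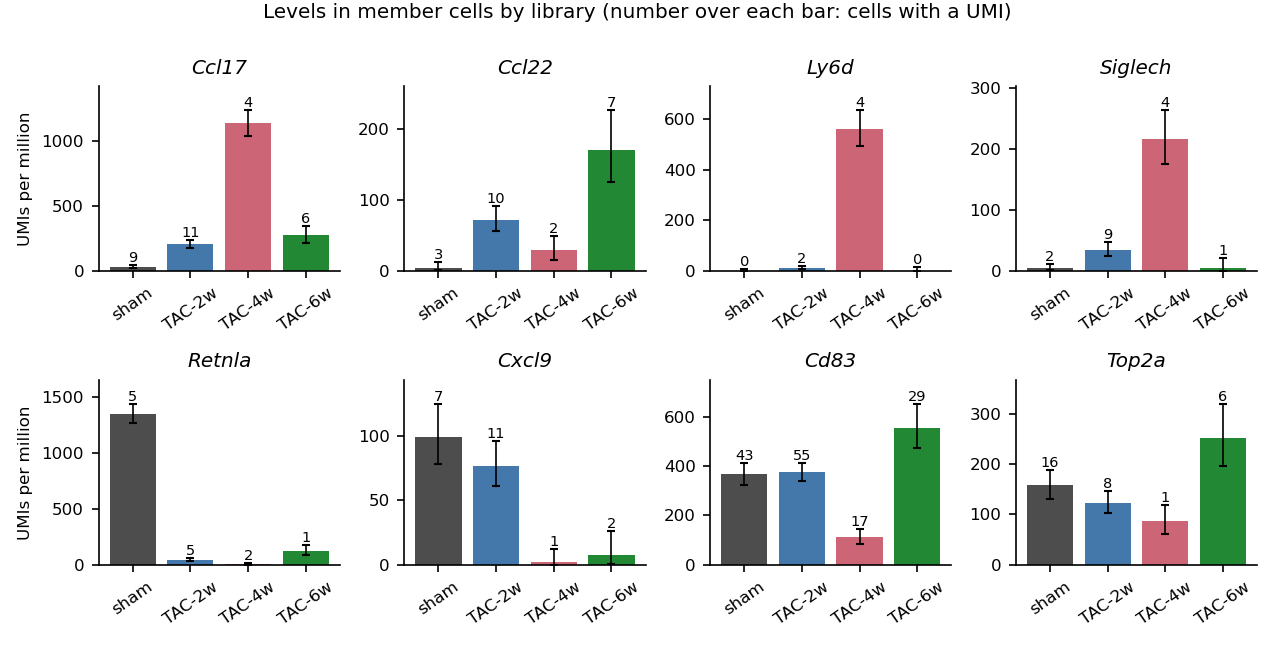
CPM of 8 genes in the summed members of each library, with 95% exact Poisson intervals for counting error, and over each bar the number of members with a UMI. Ccl17 stands highest in TAC-4w, at 1135 from 4 cells, and Cd83 is lowest there, at 111.

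Capture-spot sections of hearts from the same 4 conditions, 1 section each, gave a second readout of the subset genes, although a spot can hold several cells. Sections of sham and TAC-2w are labelled batch 1, that of TAC-4w batch 2 and that of TAC-6w batch 3, so batch and condition cannot be told apart in the TAC-4w and TAC-6w ratios. Over spots on tissue (1676 in sham, 2063 in TAC-2w, 1228 in TAC-4w and 2193 in TAC-6w), Xcr1 had 1, 7, 7 and 20 UMIs, Clec9a 4, 5, 7 and 24, Cd209a 7, 8, 11 and 6, and Flt3 8, 15, 16 and 21. Per 1000000 UMIs, TAC-6w stood at 10.8 times sham for Xcr1 (95% counting interval 1.72 to 446), 3.23 times for Clec9a (1.11 to 12.8) and 1.54 times for Irf8 (1.26 to 1.90). Irf8 was below sham in TAC-2w, at 0.749 times (0.595 to 0.944), and above it in TAC-4w, at 1.28 times (1.02 to 1.61). The section totals under these ratios include mitochondrial UMIs. Without those, Irf8 stood at 10.4 CPM in sham, 6.67 in TAC-2w, 11.2 in TAC-4w and 13.9 in TAC-6w, so the TAC-4w difference was smaller. Clec9a then stood at 0.317 CPM in sham and 0.890 in TAC-6w, and Xcr1 at 0.0793 and 0.742. No intervals were computed without mitochondrial UMIs. The section ratios are per UMI of whole tissue and those of the libraries above per UMI of members, so the readouts were not compared in direction. Ccl17 had 32 UMIs in sham and 8, 6 and 12 after TAC (ratios 0.133, 0.153 and 0.202). Spots with Cd209a numbered 5, 8, 9 and 6, and class II genes there stood at 618, 473, 772 and 409 CPM against 178, 142, 466 and 412 in the other spots.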

How the data were processed

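The data were 4 single-cell libraries (sham and 3 TAC stages) and 4 heart sections, 1 per condition. The authors deposited raw UMI counts per gene and barcode from 10x Genomics pipelines on mouse build mm10, as filtered matrices. The submitters' processing notes name Cell Ranger 7.0.0 and Space Ranger 1.3.1, while the file headers name 6.0.0 and 1.2.0. The labels speak of nuclei and the methods of the study of whole cells, and the number of mice per library was not given in the sources used here. Deposited section counts were summed over spots on tissue.

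Members and gene lists were chosen with earlier results of these data known. Summed counts were fitted with edgeR 4.0.16 in R 4.3.3 (TMM, filterByExpr, glmQLFTest, library as block, Benjamini-Hochberg threshold 0.05), and DESeq2 1.42.0 was an alternative. The 12 genes of the rule got no test. Genes named were the 12 largest and 12 smallest log2 differences between subsets, 6 and 6 in each other comparison, moving alike in all 4 libraries, 5 and 5 ratios per time point, and list genes. Shares carry exact Clopper-Pearson 95% intervals and ratios exact conditional intervals (scipy 1.17.1), which cover counting error only. Scrublet (scanpy 1.11.5, 7% expected) marked the top 3.2% as doublets, which were kept. Library totals were 86671674, 78587992, 48278486 and 28793316 UMIs from sham to week 6, and member sums 753565, 1000727, 451902 and 276623. List values without the genes of the rule, Ccl17, marked doublets or Siglech members were added after seeing the data. The test was also run on simulated counts with known changes. Those counts held no differences between libraries beyond depth, so the run does not show how the test behaves where libraries differ. Clec7a and Mx1 were not analysed here, and some genes that the naming rule chose are not reported here.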

Additional observations from a re-analysis of the deposited data

Results flagged for a closer look

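Of 60 pairs of a gene list and a time point, 12 had counting intervals on opposite sides of 1 in the 2 subsets, that is, 1 subset stood above its sham level and the other below it. The difference was not tested in any of them, since each condition has 1 library.

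Among lists of dendritic cell function, mature dendritic cell genes in TAC-4w stood at 0.591 times sham in Xcr1/Clec9a cells and 2.17 times in Cd209a cells, where 1 cell held 36.6% of 669 UMIs. Without Ccl17 the pair was 0.614 and 0.519, on the same side of 1. Development genes in TAC-4w stood at 1.13 and 0.896 times, the class II list in TAC-2w at 1.08 and 0.971, and pattern recognition genes in TAC-4w at 1.32 and 0.469. These 3 lists hold genes of the rule, without which they stood at 1.13 and 0.875, 1.11 and 1.03, and 1.17 (0.856 to 1.57) and 0.469. Cytokine and chemokine genes in TAC-6w stood at 0.594 times sham in Xcr1/Clec9a cells and 1.2 times in Cd209a cells. Cell cycle genes in TAC-6w ran the other way, at 1.81 and 0.501 times, and so did dissociation stress genes, at 1.32 and 0.661 times.

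Among markers of other cell types, monocyte markers in TAC-2w stood at 0.852 times sham in Xcr1/Clec9a cells and 1.47 in Cd209a cells. Of the 757 UMIs of TAC-2w Cd209a cells, 167 (22.1%) lay in 1 cell, so the 1.47 rests in part on it. Neutrophil markers in TAC-4w stood at 0.224 and 63.7 times, where 310 of 311 UMIs of sham Xcr1/Clec9a cells lay in 1 cell that the doublet caller marked. Without marked cells the pair was 62.99 and 60.05, from 1 sham UMI in Xcr1/Clec9a cells, and 7 of 7 Xcr1/Clec9a cells and 11 of 14 Cd209a cells of TAC-4w had at least 2 UMIs of S100a8 and S100a9. Stromal and muscle markers stood at 0.267 and 1.33 times in TAC-2w and at 3.33 and 0.0782 times in TAC-4w, where 1 cell held 96.8% of the UMIs of Xcr1/Clec9a cells. Without marked cells they stood at 0.259 and 0.378 times in TAC-2w and at 0.131 and 0.147 times in TAC-4w. Before marked cells were left out, 1 sham cell held 375 of the 537 UMIs of Xcr1/Clec9a cells. The TAC-2w ratio of this subset moved little without marked cells (0.267 to 0.259), so 0.259 and 0.131 rest in part on that cell. Platelet and red cell markers in TAC-4w stood at 0.564 and 1.31 times. Of the 150 UMIs of Cd209a cells, 46 (30.7%) lay in 1 cell, so the 1.31 rests in part on that cell.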

How the results depend on the processing

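All 48 genes named for the size of their difference kept direction and call in every alternative that tested them. Without the filter on low counts, 681 genes differed between subsets (251 higher, 430 lower), and 1883 were lower in members than in macrophages. Thinned to 3000 UMIs, the calls were 112 of 705 genes tested (48 higher, 64 lower) between subsets. They were 1138 of 3392 (536, 602) against macrophages and 657 of 1720 (307, 350) against Ly6c2 cells. With granule and killer cells left out, chosen after seeing the data, the last was 1096, with 590 lower. Leaving out each library gave 202 to 442 calls between subsets (78 to 170 higher, 116 to 272 lower), 1531 to 2645 against macrophages (716 to 1328, 814 to 1317) and 1320 to 1588 against Ly6c2 cells (516 to 696, 774 to 892). With no library block, the counts were 302, 2249 and 1626.

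Shares of members moved with depth and denominator. Thinned to 2000 UMIs they were 0.388% in sham, 0.493% in TAC-2w, 0.202% in TAC-4w and 0.243% in TAC-6w, and TAC-2w was 0.698% at 3000. With mitochondrial UMIs under 5%, they were 0.879% in sham and 1.28, 0.737 and 0.606% after TAC. Of cells with Ptprc, the shares were 2.10, 2.84, 0.602 and 2.51% in time order, and of members, macrophages and Ly6c2 cells, 3.15, 4.56, 4.13 and 3.9%. TAC-4w and TAC-6w were thus above or below sham by denominator. Xcr1/Clec9a cells were 28.9% in sham, 35% in TAC-2w and 12.5% in TAC-6w at 3000 UMIs, and 10.0% in TAC-4w at 2000. With marked doublets removed, the TAC-2w ratios of Mylk (0.800) and S100a9 (3.2) reversed, as did stromal list ratios (TAC-2w 0.336 in members and 0.378 in Cd209a cells, TAC-4w 0.131 in Xcr1/Clec9a cells) and the TAC-4w neutrophil list ratio of Xcr1/Clec9a cells (62.99). The Mylk and S100a9 ratios rested on few UMIs, with 1 sham UMI of Mylk and 4 TAC-2w UMIs of S100a9, so their direction is uncertain. The 0.131 rests in part on 1 sham cell with 375 UMIs of the list. Further choices made after seeing the data reversed others: the TAC-4w mature list without Ccl17 (0.518 in members, 0.519 in Cd209a cells) and the TAC-2w class II list without rule genes (1.01 in members, 1.03 in Cd209a cells). The cause was not tested. No paired analysis was possible because each condition has 1 library, which concerns comparisons between conditions only, while those between cell classes were blocked by library. Small cell numbers limit every value of TAC-4w, where 7 Xcr1/Clec9a cells were summed.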
